A study of Rattus norvegicus with 10 samples.

Results

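The C1q-like genes (C1ql1 to C1ql4) and the cerebellins (Cbln1 to Cbln4) encode small secreted proteins that end in a C1q domain and organize synapses. The 8 genes were taken as a family, chosen by the rise of C1ql4 with both drugs in these data, and its paralogs were to be compared with it. Of the 8, 4 could be measured: C1ql4, C1ql2, Cbln1 and Cbln3, among 32883 genes in the deposited table. The table gives Ensembl identifiers without names, and a gene name could be attached only where the readable rows of the study's supplementary gene list gave both. All of those rows are genes that the study counted as upregulated, so each of the 4 was selected on its measured rise with TSA, and C1ql1, C1ql3, Cbln2 and Cbln4 were not analysed here.

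RNA was measured in bulk in 10 libraries of primary cortical cultures from newborn Wistar rats, grown for 14 days in vitro. In the first experiment, cultures received 100 nM trichostatin A (TSA) for 19 h (n = 3) and were compared with untreated controls of the same experiment (n = 3). In the second, cultures received sodium butyrate (NaB) for 24 h (n = 2) and were compared with 2 controls of their own. The NaB dose is 5 mM in the study's methods and 5 µM in the sample labels. Both compounds inhibit histone deacetylases, the enzymes that take acetyl groups off histones, and the drug, the hours and the experiment change together, so they cannot be told apart. Reads assigned to genes numbered 26070908 to 27649249 per library. The cultures contain glia as well as neurons, and in bulk RNA a change in the number of cells of a type and a change in RNA per cell cannot be told apart. None of the 10 neuronal markers checked (Map2, Tubb3 and others) could be paired with an identifier, so the labelled cell type was not checked here.

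C1ql and cerebellin proteins are released by the presynaptic neuron and act across the cleft. C1ql proteins bind the adhesion receptor Adgrb3 (Bai3) on the postsynaptic cell, and cerebellins bridge the presynaptic and postsynaptic membranes. Cbln1 is best known from cerebellar granule cells, whose parallel fibre synapses on Purkinje cells depend on it; Cbln3 is made in the same granule cells and forms complexes with Cbln1. C1ql2 is best known from the mossy fibres of the hippocampus, while C1ql4 has been studied mostly outside the brain.

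Promoter sequence was available for 2 of the 4 measured genes, both C1q-like, and is shown because these 2 paralogs responded with very different size. Each sequence is the 250 bases before the annotated start, 5′ to 3′ on the gene's own strand, from RefSeq (build GRCr8, which is not the Rnor_6.0 build used for the counts). Capitals mark every CpG, the dinucleotide that can carry DNA methylation. The C1ql4 promoter lies at chr7:132125610-132125859 on the minus strand and that of C1ql2 at chr13:34023652-34023901 on the plus strand.
C1ql4: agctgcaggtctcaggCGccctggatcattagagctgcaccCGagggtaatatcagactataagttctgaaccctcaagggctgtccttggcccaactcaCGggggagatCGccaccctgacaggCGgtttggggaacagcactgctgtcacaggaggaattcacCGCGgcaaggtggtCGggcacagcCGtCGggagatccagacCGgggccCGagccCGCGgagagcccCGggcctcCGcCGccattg
C1ql2: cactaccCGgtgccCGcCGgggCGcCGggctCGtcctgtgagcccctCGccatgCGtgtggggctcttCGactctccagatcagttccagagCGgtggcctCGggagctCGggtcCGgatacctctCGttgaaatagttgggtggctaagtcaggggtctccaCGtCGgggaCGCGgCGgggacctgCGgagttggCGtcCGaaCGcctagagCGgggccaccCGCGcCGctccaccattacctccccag

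The C1ql4 window held 17 CpG and 64.0% G or C. The C1ql2 window held 27 CpG and 68.8% G or C. Both lay above the median of all 33469 promoters in the same table, which was 5 CpG and 51.2% G or C. The C1ql4 count was higher than that of 78.1% of promoters and the C1ql2 count higher than that of 92.3%. The 6 short motifs searched, on both strands, were GGGCGG (present in 30.5% of all promoters), TATAAA (12.9%), CACGTG (5.59%), TGACGTCA (1.59%), CAGCACC (5.43%) and GGACAGC (5.30%). The last 2 are parts of the site of REST, a repressor of neuronal genes that recruits histone deacetylases. The C1ql4 window held 1 match, GGACAGC on the opposite strand, from base -170 to base -164 counted from the start. The C1ql2 window held none of the 6. A match to letters is not evidence of binding, and no binding or histone data were used here.

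C1ql4 (ENSRNOG00000060020) was almost silent in control cultures and clearly expressed after either drug. Its normalized count was 6.33, 1.03 and 3.20 in the 3 TSA controls and 471, 309 and 435 in the 3 TSA cultures. In the NaB experiment it was 4.14 and 5.22 in the controls and 448.9 and 459.9 in the treated cultures. No treated library came near any control: the 5 control libraries together held 19 C1ql4 reads, between 1 and 6 each, and the lowest treated library held 342. The group means were 405 ± 84.8 (SD, n = 3) with TSA against 3.52 ± 2.66 (SD, n = 3), and 454 ± 7.76 (SD, n = 2) with NaB against 4.68 ± 0.763 (SD, n = 2).

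The ratio of normalized reads was 115 with TSA (95% counting interval 62.5 to 241) and 97.1 with NaB (50.9 to 213). These intervals are exact binomial ones and cover counting error only; their width comes from the few control reads. Taken pair by pair, since a control and a treated culture shared a plate, the C1ql4 ratio was 74.4, 300.4 and 136 with TSA and 108.4 and 88.1 with NaB. The highest pair ratio, 300.4, rests on a control library with a single C1ql4 read. On the log2 scale with 1 added to each normalized count, the change of C1ql4 was 6.65 (standard error, SE, 0.39) with TSA and 6.33 (SE 0.48) with NaB. Ordered by log2 change, C1ql4 stood at place 4 with TSA and place 5 with NaB among the 15717 genes with enough reads to test. C1ql4 was chosen for this rise, so its values are a description and no test is given.

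**Figure D1:**
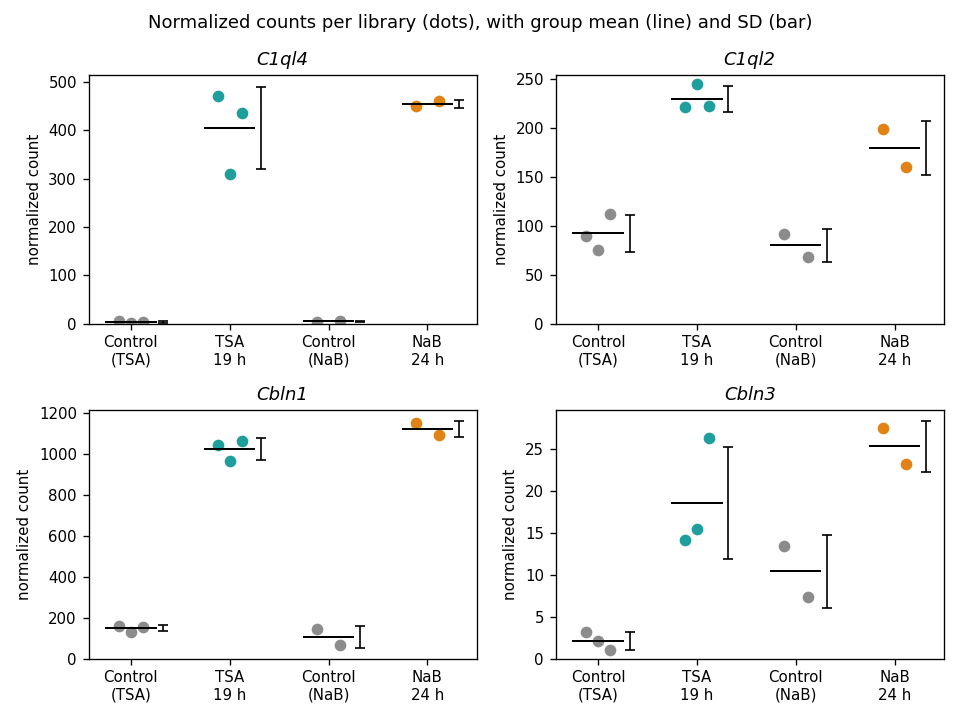
Normalized counts (vertical axis, linear, from 0, a separate scale in each panel) of C1ql4, C1ql2, Cbln1 and Cbln3 in each of the 10 libraries, grouped as controls and treated cultures of each experiment. Dots are libraries, lines are group means and bars are SDs; C1ql4 controls lie between 1.03 and 6.33 while treated cultures lie between 309 and 471, and the NaB controls of Cbln3 lie above its TSA controls.

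C1ql2 (ENSRNOG00000046863), the closest measured paralog of C1ql4, was already present in controls and had a much smaller change than C1ql4. Its normalized count was 89.7, 75.2 and 112 in the TSA controls and 221, 245 and 222 in the TSA cultures. In the NaB experiment it was 92.1 and 67.9 in the controls and 199 and 160.04 in the treated cultures. Treated libraries lay above control libraries in both experiments, and the 5 controls of the 2 experiments covered overlapping ranges. The ratio of normalized reads was 2.50 with TSA (2.17 to 2.89) and 2.25 with NaB (1.86 to 2.73). The pair ratios of C1ql2 ranged from 1.99 to 3.26 with TSA and were 2.16 and 2.36 with NaB. The log2 change of C1ql2 was 1.32 (SE 0.19) with TSA, given without a test because the TSA result is what brought its name into view. With NaB it was 1.17 (SE 0.23, 95% interval 0.66 to 1.67, adjusted p = 0.00156 by limma), and C1ql2 rose.

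Cbln1 (ENSRNOG00000000010) was expressed in every control and was several times higher after either drug. Its normalized count was 160.3, 129.8 and 156 in the TSA controls and 1044, 964 and 1063 in the TSA cultures. In the NaB experiment it was 143 and 65.8 in the controls and 1149 and 1093 in the treated cultures. The treated libraries of both experiments fell into a narrow band, from 964 to 1149, and the widest spread was between the 2 NaB controls, whose coefficient of variation was 52.3% against 11.1% for the TSA controls. The ratio of normalized reads was 6.89 with TSA (6.22 to 7.64) and 10.7 with NaB (9.29 to 12.5). The Cbln1 pair ratios were 6.51, 7.43 and 6.83 with TSA, and 8.04 and 16.6 with NaB, where the higher one belongs to the control with 63 reads. The log2 change of Cbln1 with TSA was 2.78 (SE 0.22), without a test. With NaB it was 3.52 (SE 0.27, 95% interval 2.91 to 4.13, adjusted p = 8.30e-06 by limma), and Cbln1 rose.

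Cbln3 (ENSRNOG00000020503), the partner of Cbln1 in granule cells, stayed at low counts throughout. Its normalized count was 3.16, 2.06 and 1.07 in the TSA controls and 14.1, 15.4 and 26.2 in the TSA cultures. In the NaB experiment it was 13.5 and 7.31 in the controls and 27.4 and 23.1 in the treated cultures. The controls of the 2 experiments did not overlap: both NaB controls lay above all 3 TSA controls, and the higher NaB control was close to the lowest TSA culture. With 3, 2 and 1 reads in the TSA controls and 13 and 7 in the NaB controls, 1 of 5 controls reached the level of the filter on low counts (0.371 CPM), so Cbln3 passed it through the treated libraries, where it is high. The ratio of normalized reads was 8.77 with TSA (3.80 to 24.9) and 2.43 with NaB (1.43 to 4.30).

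The log2 change of Cbln3 was 2.67 (SE 0.40) with TSA and 1.26 (SE 0.49) with NaB. No test is given for Cbln3 with either drug, because of how it passed the filter. Leaving out 1 NaB control moved the NaB value to 1.66 (without replicate 1) or 0.86 (without replicate 2). The strand setting of the counting was not given in the sources used here.

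Across the 4 genes, every treated library lay above every control of its own experiment, with TSA and with NaB alike. Among all 15717 tested genes, 33.1% did so with TSA and 40.2% with NaB, and among the 1753 tested genes named from the TSA rows 95.9% did so with NaB. With TSA, 22.5% of all tested genes were called higher and 19.7% lower. No TSA call is given for the 4 members, since TSA values chose them. C1ql2 and Cbln1, the 2 genes tested with NaB, both rose. The background for that count is 21.2% of all tested genes called higher and 20.3% called lower with NaB, but 87.3% called higher of the 1753 genes named from the TSA rows, which is the comparable set, although it was not limited to genes that passed the filter through controls too. The median log2 change with NaB was 1.80 over those 1753 genes and 0.020 over all tested genes. With NaB, Cbln1 (3.52) lay above the median of those 1753 genes, and C1ql2 (1.17) and Cbln3 (1.26) lay below it. C1ql4 (6.33) also lay above it but was chosen for its rise. So nothing particular to the family can be read from the count.

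C1ql4 had the largest log2 change of the 4 genes with both drugs. The log2 changes of Cbln1 and Cbln3 with TSA (2.78 and 2.67) lay within their errors of each other, and by the ratio of normalized reads their order was the other way (6.89 and 8.77). With NaB the log2 changes of Cbln3 and C1ql2 (1.26 and 1.17) lay within their errors. The NaB change minus the TSA change, on the log2 scale, was -0.32 (SE 0.62) for C1ql4, 0.74 (SE 0.35) for Cbln1, -0.16 (SE 0.29) for C1ql2 and -1.41 (SE 0.63) for Cbln3. For Cbln3 the level after NaB (25.3 ± 3.02, SD, n = 2) and after TSA (18.6 ± 6.68, SD, n = 3) were close, and the controls differed more (10.4 ± 4.35, n = 2, and 2.10 ± 1.05, n = 3). These differences are given without a test, because the TSA values chose the genes. Taken against the controls of both experiments together, the log2 change of Cbln3 was 1.91 with TSA and 2.39 with NaB.

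**Figure D2:**
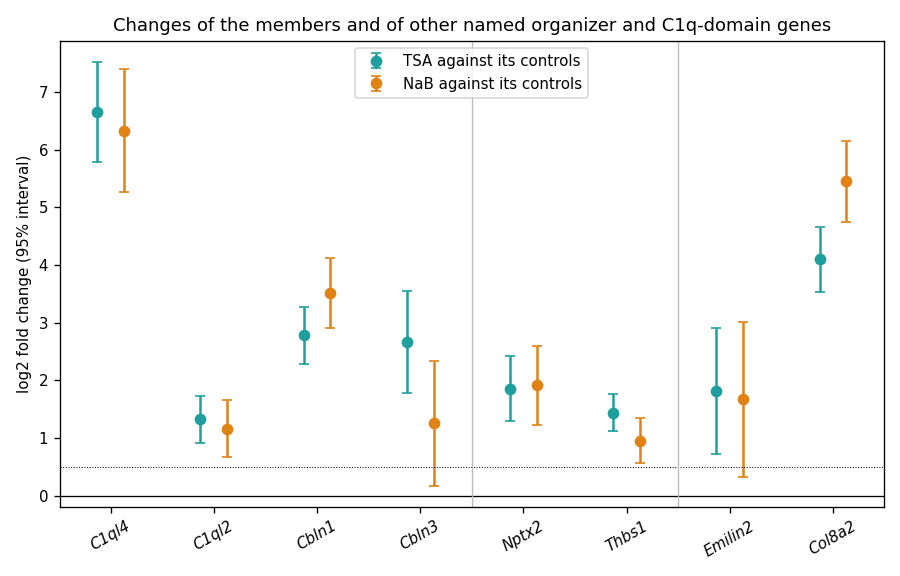
Log2 fold changes (vertical axis, on normalized counts with 1 added) with TSA and with NaB for the 4 measured family members, 2 other secreted synaptic organizers and 2 other genes with a C1q domain; points are estimates, bars are 95% intervals and the dotted line is the 0.5 threshold. C1ql4 lies at 6.65 and 6.33, Col8a2 at 4.10 and 5.45, and the other genes between 0.95 and 3.52. The TSA bars and the bars of C1ql4 and Cbln3 are not read as tests.

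The receptors and partners of the family were not analysed here: none of the 12 listed could be paired with an identifier, nor could any of 43 membrane organizers. Of 17 other secreted synaptic organizers, 2 were paired, and both rose with NaB. Nptx2, a neuronal pentraxin that clusters AMPA receptors, measured 1047, 2112 and 1213 in the TSA controls and 5234, 6625 and 3697 with TSA. With NaB it measured 3500.4 and 2862 against 839 and 843 in the controls, a log2 change of 1.91 (SE 0.31, adjusted p = 5.21e-04 by limma). Thbs1, a thrombospondin that astrocytes release and that promotes synapse formation, measured 129.7, 183 and 159 in the TSA controls and 411, 431 and 433 with TSA. With NaB it measured 452 and 466 against 268 and 209, a log2 change of 0.95 (SE 0.18, adjusted p = 0.00114 by limma).

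Of 23 other genes with a C1q domain, 2 were paired. Col8a2, a chain of type VIII collagen, changed most: 19.0, 20.6 and 25.6 in the TSA controls and 399, 416 and 345 with TSA. With NaB it measured 592 and 727 against 9.32 and 20.9, a log2 change of 5.45 (SE 0.31, adjusted p = 3.26e-06 by limma). Emilin2, an elastin-interface glycoprotein, rose less firmly, with 139.9 and 126 against 25.9 and 64.7 and a log2 change of 1.67 (adjusted p = 0.0388 by limma). Emilin2 was not called without NaB control replicate 1 (log2 change 1.03, adjusted p = 0.252 by limma), and its log2 change was 2.32 without replicate 2. As only upregulated genes carry a name here, these changes are read against the 87.3% above and are no result about either group.

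The neighbours of the family members were examined because genes that lie together can change together. Only upregulated genes carry a name here, so every paired neighbour was named as one. Their values are read against the 1753 genes named from the TSA rows, of which 87.3% were called higher with NaB (median log2 change 1.80). No shared change of a locus is read from them. Among the 5 annotated genes on each side, 2 of 10 were paired for C1ql4, 4 of 10 for C1ql2, 2 of 10 for Cbln3 and none of 10 for Cbln1. For 3 of the 8 (Dnajc22, Tmem37 and Ripk3) no control reached the filter level, so they passed it through the treated libraries; their values are given without a test, and no count over the neighbours is read. Next to C1ql4 lies Dnajc22, a DnaJ family chaperone, which measured 38.7 and 44.3 with NaB against 3.11 and 9.40 (ratio of normalized reads 6.66, 95% counting interval 3.62 to 13.4). Its log2 change was 2.03 without NaB control replicate 1 and 3.37 without replicate 2. On the other side, beyond Troap, Prph, the intermediate filament peripherin, measured 72.8 and 98.3 against 26.9 and 16.7 (log2 change 1.95, adjusted p = 9.47e-04 by limma).

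Beside C1ql2, Steap3, a metalloreductase of iron uptake, measured 789 and 797 with NaB against 258 and 275, a log2 change of 1.57 (adjusted p = 2.97e-05 by limma). En1, a homeobox transcription factor on the other side beyond Marco, changed by 1.61 on the log2 scale. Farther out, Sctr (the secretin receptor) changed by 3.02 and Tmem37 by 3.69. Near Cbln3, Ripk3, a kinase of necroptosis, and Nfatc4, a calcium-regulated transcription factor, each changed by 3.16. The log2 changes of Ripk3 and Nfatc4 rest on few control reads: without NaB control replicate 1 they were 2.56 and 3.85, and without replicate 2 they were 3.75 and 2.47.

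**Figure D3:**
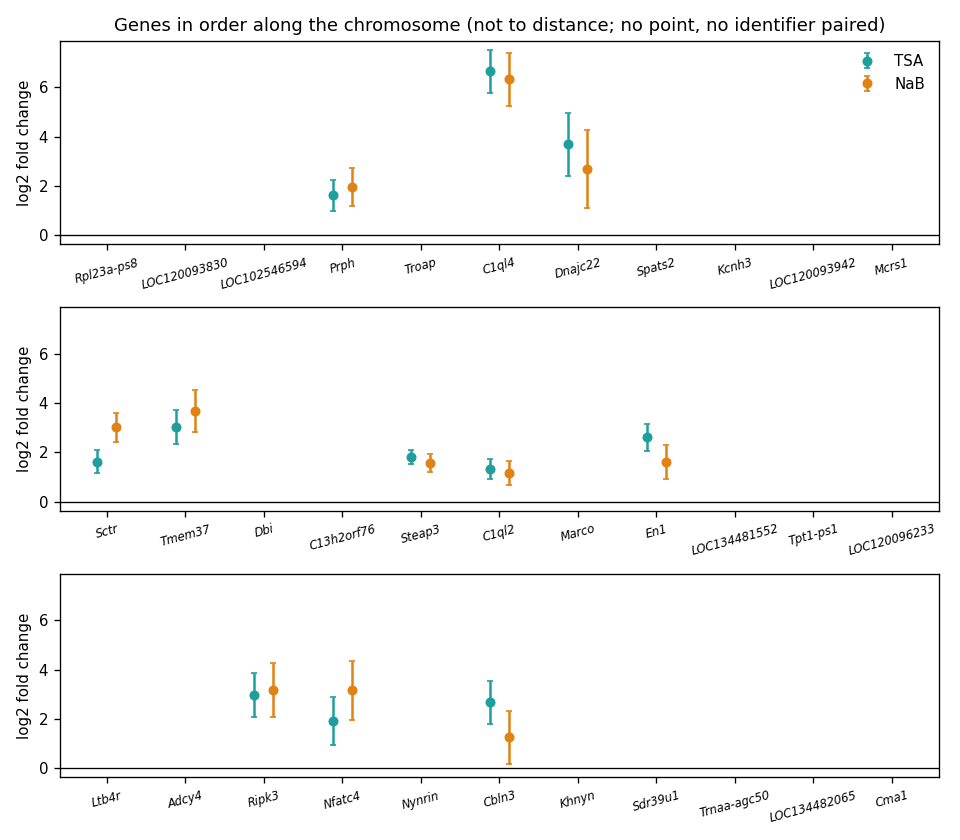
Log2 fold changes (vertical axis) with TSA and with NaB for C1ql4, C1ql2, Cbln3 and the 5 annotated genes on each side, in gene order and not to distance; points are estimates and bars are 95% intervals, and a gene with no point had no paired identifier. The 8 neighbours with points lie between 1.57 and 3.69 with NaB, while C1ql4 lies at 6.33. Only upregulated genes could be paired, so the points do not show how the other neighbours changed. The TSA bars and the bars of genes given without a test are not read as tests.

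The patterns most like those of the family members were found among 1827 other named genes by Pearson's r of log2 values over the 10 libraries, which share the contrast of treated and control. For C1ql4 these were Chrna5, a nicotinic receptor subunit (r = 0.997), Alpk1, a kinase of innate sensing (0.996), Ptgr1, a prostaglandin reductase (0.996), Scube1, a secreted glycoprotein (0.993), and Llgl2, a polarity protein (0.993). Chrna5 measured 97.1, 56.7 and 66.1 in the TSA controls and 782, 591 and 744 with TSA. Like C1ql4, it had its lowest treated TSA value in replicate 2, and so did Alpk1, Ptgr1, Scube1 and Llgl2. These genes were picked by their r to C1ql4 over the same libraries. By Spearman's rho, 1 of these 5 genes, Alpk1, stayed among the 5 most alike. For Cbln1 the 3 most alike were Pdyn (0.995), Epop (0.994) and Tjp3 (0.994), and for C1ql2 they were Trim45 (0.987), Ntng1 (0.981) and Eda (0.979). Cbln3 had Greb1 (0.963), Ttc21a (0.962) and Map3k21 (0.958). By Spearman's rho none of the 3 was shared for any of these 3 genes.

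Between family members, r over the same 10 libraries was 0.963 for C1ql4 and Cbln1, 0.956 for C1ql2 and Cbln1 and 0.927 for C1ql4 and C1ql2. Cbln3 was less like the others, with 0.837 with C1ql4, 0.752 with Cbln1 and 0.686 with C1ql2. These values describe a pattern that is mostly the step between control and treated cultures.

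**Figure D4:**
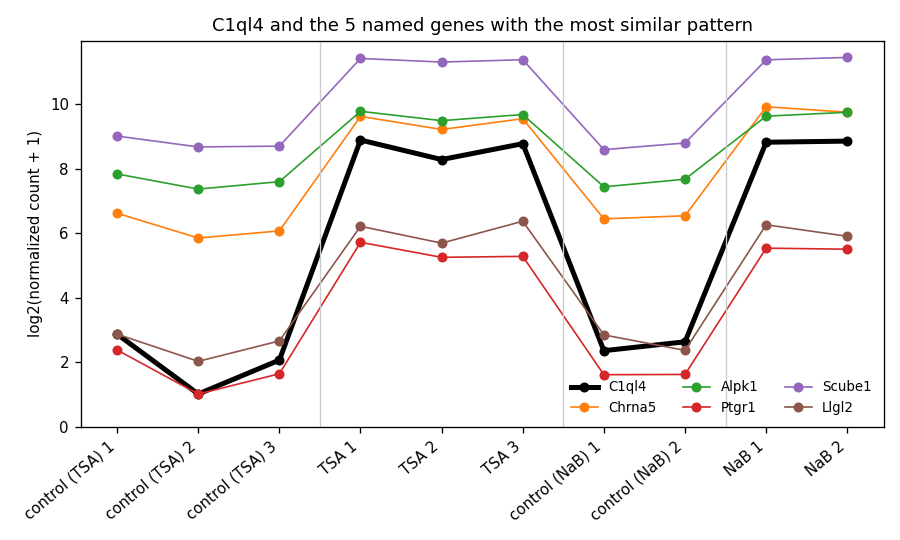
Log2 of the normalized count plus 1 (vertical axis) in the 10 libraries, in group order, for C1ql4 (thick black line) and the 5 named genes with the highest Pearson r to it. All 6 step up in each treated group, C1ql4 by 6.65 with TSA and Alpk1 by 2.04; lines join libraries only to guide the eye.

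Some named markers of other cell types were also higher in the treated libraries; since only upregulated genes carry a name here, they do not show the direction of their whole lists. Cbln1 and Cbln3 are typical of cerebellar granule cells, and 4 of 9 granule cell markers could be paired (Barhl1, Barhl2, Zic1 and Atoh1). Their summed normalized count was 96.0, 153 and 139.7 in the TSA controls and 462, 341 and 439 with TSA. In the NaB experiment it was 177 and 147 in the controls and 408 and 344 with NaB. Zic1 was the most abundant in every library. Atoh1 and Barhl2 each had 0 reads in 4 of 5 controls, and Atoh1 measured 64.7, 24.4 and 55.4 with TSA and 36.9 and 47.2 with NaB. Gabra6, the receptor subunit of mature granule cells, was not among those paired.

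Of 8 markers of endothelial and mural cells, 3 were paired (Kdr, Flt1 and Rgs5), and they summed to 27.4, 17.5 and 27.7 in the TSA controls and 240.1, 192 and 273 with TSA. With NaB they summed to 201 and 199.6 against 28.0 and 53.2, with Flt1 the most abundant there and Kdr in the controls. Col1a1, the 1 paired marker of 6 for fibroblasts and meninges, measured 909, 47.4 and 1379 in the TSA controls and 798, 696 and 879 with TSA, where the groups overlapped. With NaB it measured 876 and 961 against 149 and 137. Tmem119, 1 of 8 for microglia, measured 5.63, 4.52 and 1.94 with TSA against 2.11, 1.03 and 5.33, which overlap, and 15.1 and 11.6 with NaB against 1.04 and 2.09. Col1a1 was not named from the TSA rows, and all rows used hold upregulated genes, so its NaB rise can come from that selection. No test is given for Col1a1 or Tmem119, and their NaB values are not read as particular to NaB. The part of these markers in the changes of the C1q-like and cerebellin genes was not tested.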

How the data were processed

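RNA of 10 libraries (TSA_19h 3, Control_TSA 3, NaB_24h 2, Control_NaB 2) was analysed. According to the study's methods and the submitters' processing notes, the authors aligned paired reads with STAR (2.7.9a) to Rnor_6.0, counted them with featureCounts (2.0.1) and normalized with DESeq2 (1.29). The deposited values are counts divided by a size factor per library (a signal, not raw counts). Whole reads were recovered: 100% of values above 0 were whole within 0.01.

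The changes were tested with limma 3.58.1 (R 4.3.3, mean-variance trend) on log2(value + 1) over all 10 libraries in their 4 groups, for 15717 genes kept by filterByExpr (minimum count 10). P-values were adjusted by Benjamini-Hochberg over all of them, two-sided. A gene was called at an adjusted p under 0.05 with a log2 change of at least 0.5, and limma called 6644 genes with TSA and 6521 with NaB. On the recovered reads, edgeR (4.0.16, quasi-likelihood) called 6657 and 6546, and DESeq2 1.42.0, run on all 24293 genes with a read, called 6435 and 6345.

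Identifiers were paired with names for 1909 genes through the readable rows of the study's supplementary gene list, 1816 of them from TSA rows. Its fold changes and p-values were not used. Members and lists were chosen with earlier results of these data known. The planned tests of TSA changes and of the difference between drugs are not given for the named genes. TSA values chose the members and most of the other named genes. Calls with TSA over all genes are given as background only. The NaB changes of named genes were tested, except for C1ql4 and for genes not named from TSA rows, such as Col1a1. Also left out were genes with fewer than 2 controls at the filter level (0.371 CPM). Cbln3 is among those genes, so its planned test was not used. Named genes were the members, the paired genes of the lists, neighbours and the genes with the highest r. The exception is Pvalb, the 1 paired gene of 11 GABAergic markers, whose values are not given here. Libraries were prepared from separate cultures, and each control shared a plate with its treated culture (paired here by the replicate number in the titles for TSA and by consecutive library names for NaB). Deviations from group means correlated within pairs (r = 0.284, 0.392 and 0.314 for TSA and 0.342 for NaB), so a fit with the replicate block was added. Alternatives were other tools, scaling, filters, pseudocounts and leaving out each library. The simulated-data check was run after the main fit and before the alternatives. The promoter table is RefSeq, build GRCr8.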

Additional observations from a re-analysis of the deposited data

How the results depend on the processing

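The TSA changes of all 4 measured members stayed positive under every alternative run, and C1ql2 and Cbln1 were called higher with NaB under every one (adjusted p up to 0.0190 for C1ql2 and 0.00125 for Cbln1). With the replicate block, the NaB change of Cbln1 was 3.52 (adjusted p = 5.15e-07), and the block changed no call of C1ql2, Cbln1, Nptx2, Thbs1, Col8a2, Emilin2 or the 5 tested neighbours. Cbln3, given without a test, kept a positive NaB change under every alternative run, from 0.86 without NaB control replicate 2 to 2.39 with all 5 controls as 1 group, and its TSA change was 1.71 with a pseudocount of 5. A filter at a mean of 50 counts removed Cbln3 and left 2 of the 5 tested neighbours. With a pseudocount of 5 the change of C1ql4 was 5.61 with TSA and 5.57 with NaB.

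Scaling by library totals moved the median change of all genes to 0.20 with TSA and 0.13 with NaB, from 0.022 and 0.020. The NaB minus TSA difference of C1ql4 was 0.16 without TSA control replicate 2, that of C1ql2 was 0.06 without NaB control replicate 1, that of Cbln1 was 0.18 without NaB control replicate 2, and that of Cbln3 was -0.70 with a pseudocount of 5. Besides the cases given in the text, Emilin2 was not called with NaB with no filter (adjusted p = 0.0663), without any 1 TSA culture (0.0518 to 0.0535) or without either NaB culture (0.131 and 0.103). Control reads of C1ql4 (1 to 6) and Cbln3 (1 to 3 with TSA) limit their ratios.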
